A study of Danio rerio with 8 samples.

Results

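The 8 zebrafish genes *sox9a*, *sox9b*, *sox5*, *sox6*, *runx2a*, *runx2b*, *runx3*, and *sp7* encode transcription factors of cartilage and bone formation, and their RNA was followed in sorted neural crest cells (NCCs) of *slc30a1* mutants and controls. They are defined by a list of gene names, with no threshold on their values. The list was chosen with earlier results of these data known. Each is listed once among the 25926 gene identifiers of 2 days post-fertilization (dpf) and once among the 32057 identifiers of 2.5 dpf. A *sox10* promoter drove a fluorescent protein in all embryos (the *Tg(sox10:kikGR)* transgene), and live fluorescent cells were sorted after protease digestion. The 4 groups were control embryos at 2 dpf, *slc30a1* mutant embryos at 2 dpf, control embryos at 2.5 dpf, and *slc30a1* mutant embryos at 2.5 dpf, with 2 libraries each. Mutants were slc30a1a-/-;slc30a1b-/- embryos, in which both zinc exporter genes of this name are knocked out. The study bred such embryos from parents homozygous for the *slc30a1b* knockout and recognized them by a small head and small eyes, and embryos of normal appearance from such parents would carry the *slc30a1b* mutation as well. The exact alleles of the control embryos used for these libraries, the number of embryos per library, and whether replicates came from separate clutches are not given in the sources used here. The p-values below therefore measure the spread between these libraries only.

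Cartilage forms when mesenchymal cells of the pharyngeal arches (PA) condense and switch on a Sox9 protein, which binds the genes of cartilage matrix. Zebrafish have a pair of *sox9* genes, *sox9a* and *sox9b*. Sox5 and Sox6 lack an activation domain of their own and act beside Sox9 on the same matrix genes. Runx proteins bind DNA together with their partner Cbfb. Runx2 drives the maturation of cartilage cells and the first step toward bone cells, and Sp7, also called osterix, acts after Runx2 in bone cells. The *sox9* genes are also active in ear placode, glia, and pigment progenitors, so their level in sorted cells does not belong to cartilage alone.

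Levels are given in FPKM, the fragments of a gene scaled for its length and for the mapped fragments of the library, so that levels of different genes can be set side by side. The tables give levels and not reads, so the depth behind them is unknown. Each library added up to 609836 to 697012 FPKM. *sox10*, the gene behind the sort, was between 47.6 and 156 FPKM. *slc30a1a* was lower in every mutant library, at 4.98 to 7.06 FPKM against 8.56 to 12.1 FPKM in controls, while *slc30a1b* was at 0 to 0.14 FPKM in all 8 libraries, controls included, and gives no check of the labels. Because the sorted cells are a mixture, fewer cells of a type and less RNA per cell cannot be told apart in any value below.

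The 8 genes spanned a wide range of levels. *sox9a* was the highest of them in every group, followed by *sox9b* and *sox5*. In controls at 2 dpf *sox9a* was 88.4 ± 33.2 FPKM (SD, n = 2 libraries here and below), above 96.8% of the identifiers of that table. *sox9b* was 33.1 ± 8.01 FPKM, *sox5* 7.08 ± 2.11 FPKM, *runx2b* 6.99 ± 2.66 FPKM, *sox6* 2.12 ± 0.0566 FPKM, and *runx3* 1.09 ± 0.332 FPKM. *sox5* and *runx2b* did not differ beyond their spread there. *runx2b* had the higher mean of the pair *runx2b* and *sox6* in controls at either stage, and *sox6* had the higher one in mutants. *runx2a* and *sp7* were the lowest in all 4 groups, with means of at most 0.365 and 0.085 FPKM.

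**Figure D1:**
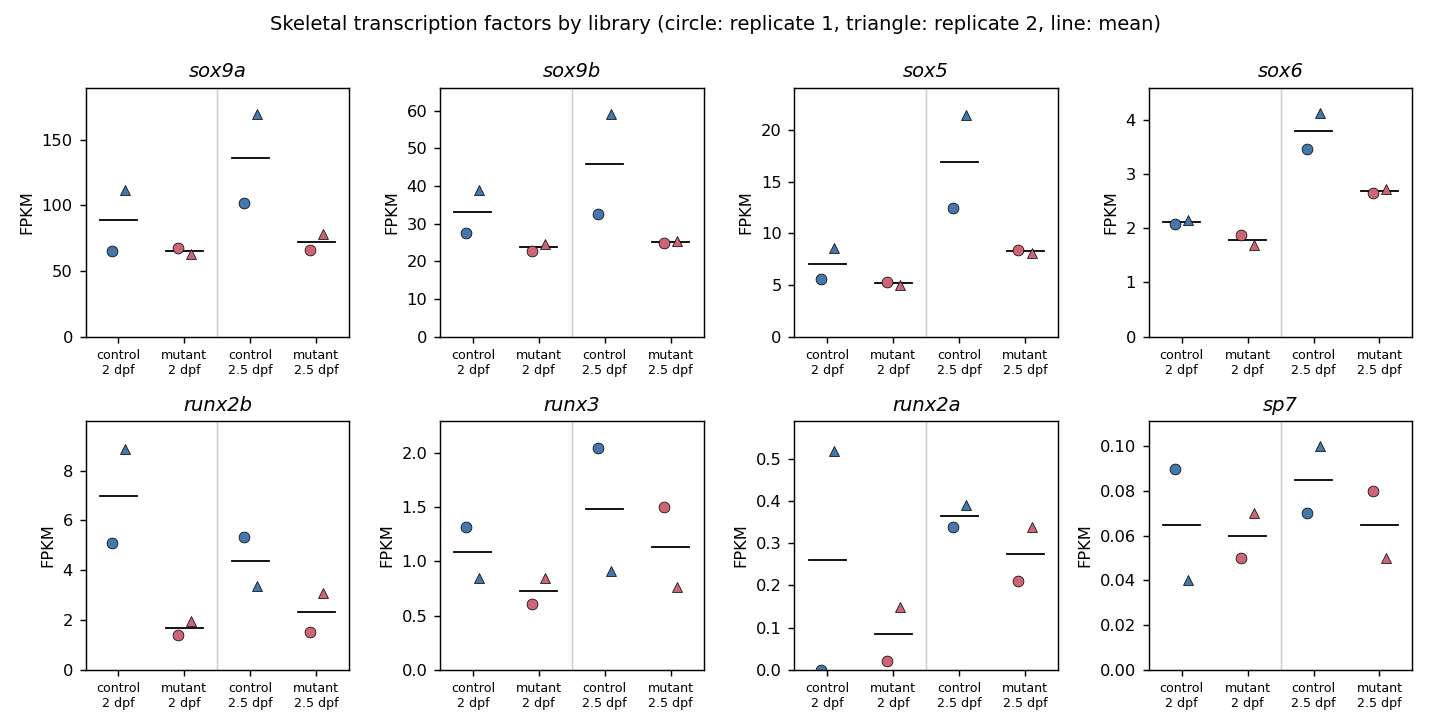
FPKM of the 8 genes in each of the 8 libraries, with 1 panel per gene, circles for replicate 1, triangles for replicate 2, blue for controls, red for mutants, and a line at the mean of each group. Replicate 2 of the controls holds the highest *sox9a* value at either stage (111.91 and 169.69 FPKM), and *runx2b* is below every control library of its stage in all mutant libraries.

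*sox9a* (ENSDARG00000003293) was 64.98 and 111.91 FPKM in the controls and 67.60 and 62.58 FPKM in the mutants at 2 dpf. The groups overlapped, since mutant replicate 1 lay above control replicate 1. Mutant and control libraries were compared with limma on log2(FPKM + 1), in which a negative log2 fold change means a lower level in mutants and p-values are adjusted over all genes by the Benjamini-Hochberg method. The log2 fold change was −0.39 ± 0.27 (SE), with a 95% interval from −1.03 to 0.26 and an adjusted p of 0.413. At 2.5 dpf *sox9a* was 101.84 and 169.69 FPKM in controls and 65.98 and 77.91 FPKM in mutants, so that both mutant libraries were below both controls. The mutant mean was 53.0% of the control mean, and the log2 fold change of −0.87 ± 0.28 had an unadjusted p of 0.0227 and an adjusted p of 0.318. When both stages were fitted together, the log2 fold change was −0.63 ± 0.22 and the adjusted p was 0.113.

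*sox9b* (ENSDARG00000043923), the other *sox9* gene, was 27.47 and 38.80 FPKM in controls and 22.79 and 24.72 FPKM in mutants at 2 dpf. The values of 2.5 dpf were 32.51 and 59.21 FPKM in controls and 24.77 and 25.46 FPKM in mutants. Every mutant library was thus below every control library of its stage. The log2 fold change was −0.44 ± 0.21 at 2 dpf (adjusted p = 0.253, limma) and −0.78 ± 0.30 at 2.5 dpf (adjusted p = 0.390, limma). Over both stages it was −0.61 ± 0.20, with an adjusted p of 0.0907, which missed the threshold of 0.05.

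*sox5* (ENSDARG00000011582), one of the Sox partners of Sox9, was 5.58 and 8.57 FPKM in controls and 5.29 and 5.04 FPKM in mutants at 2 dpf. Its 2.5 dpf values were 12.41 and 21.43 FPKM in controls and 8.42 and 8.07 FPKM in mutants. The groups were separate at both stages, narrowly at 2 dpf and by a wider gap at 2.5 dpf, where the mutant mean was 48.7% of the control mean. The log2 fold changes were −0.36 ± 0.23 (adjusted p = 0.365, limma) and −0.91 ± 0.28 (adjusted p = 0.308, limma), and over both stages −0.64 ± 0.21 (adjusted p = 0.0915, limma).

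*sox6* (ENSDARG00000015536), the other Sox partner, was 2.08 and 2.16 FPKM in controls and 1.87 and 1.69 FPKM in mutants at 2 dpf. At 2.5 dpf it was 3.46 and 4.12 FPKM in controls and 2.65 and 2.73 FPKM in mutants. The mutant libraries were the lower ones at both stages, and the mutant mean was 84.0% and 71.0% of the control mean. Its log2 fold changes were closer to 0 than those of *sox5*, at −0.17 (95% interval −0.56 to 0.23) and −0.37 (−0.85 to 0.10), and neither passed the test. Over both stages it was at −0.27 ± 0.11, with an unadjusted p of 0.0402 and an adjusted p of 0.172 (limma).

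*runx2b* (ENSDARG00000059233), 1 of the zebrafish pair of *runx2* genes, was the only one of the 6 genes tested that limma called changed on the scale of the authors with all libraries and the filter given below. At 2 dpf it was 5.11 and 8.87 FPKM in controls and 1.41 and 1.95 FPKM in mutants, a mutant mean of 24.0% of the control mean. Even the highest mutant library was far below the lowest control library. The log2 fold change was −1.54 ± 0.27 (95% interval −2.19 to −0.89, adjusted p = 0.0389, limma), and only 0.654% of the 15453 genes tested had a lower one. At 2.5 dpf it was 5.35 and 3.38 FPKM in controls and 1.53 and 3.08 FPKM in mutants. The groups were still separate, but mutant replicate 2 came close to control replicate 2. The log2 fold change there was −0.71 ± 0.32 (95% interval −1.51 to 0.08, adjusted p = 0.454, limma). Over both stages *runx2b* fell by 1.13 ± 0.26 on the log2 scale, with an adjusted p of 0.0308.

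The fold change of *runx2b* at 2 dpf stayed below −1 with each library left out, but the call did not hold. Leaving out 1 of the 4 libraries gave log2 fold changes between −1.89 and −1.20 and adjusted p between 0.0877 and 0.191, and over all 11 alternatives the adjusted p ranged from 0.0205 to 0.191. Without either control library limma called 0 of all genes (smallest adjusted p = 0.101 and 0.0932), so these 2 fits say nothing of *runx2b* in particular, while without either mutant library it called 83 and 227 genes and not *runx2b*. The call over both stages was kept in 7 of 14 alternatives, with adjusted p from 0.0209 to 0.0953. It was lost without any 1 library of 2 dpf and without replicate 1 of either genotype at 2.5 dpf, and without the filter on low values. The effect of genotype on *runx2b* differed between the stages by 0.83 ± 0.46 on the log2 scale (95% interval −0.25 to 1.90, adjusted p = 0.859, limma), and a smaller effect at 2.5 dpf than at 2 dpf is thus not shown.

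*runx3* (ENSDARG00000052826), the third Runx gene of the set, was 1.32 and 0.85 FPKM in controls and 0.61 and 0.85 FPKM in mutants at 2 dpf. At 2.5 dpf it was 2.05 and 0.91 FPKM in controls and 1.5 and 0.76 FPKM in mutants. Replicates of a group differed by as much as the groups did, and the log2 fold changes of −0.26 (95% interval −0.69 to 0.17) and −0.20 (−0.96 to 0.56) did not pass the test. *runx2a* (ENSDARG00000040261) was listed at 0 and 0.52 FPKM in controls and 0.02 and 0.15 FPKM in mutants at 2 dpf, then 0.34 and 0.39 FPKM and 0.21 and 0.34 FPKM at 2.5 dpf. *sp7* (ENSDARG00000019516) was between 0.04 and 0.10 FPKM in all 8 libraries. Both lay under the minimum mean of 0.5 FPKM and were not tested.

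Of the 8 genes, 6 passed the filter on low values, and the counts that follow are over these 6. Because the list was chosen with earlier results known, the shares of all genes set beside them describe and do not test. The *sox* genes moved together over the libraries (Pearson's r of *sox9a* was 0.963 with *sox9b*, 0.910 with *sox5*, and 0.770 with *sox6*). The *sox* genes are thus not separate observations, and the 6 do not count as 6. With *runx2b* and *runx3* the r of *sox9a* was lower, at 0.490 and 0.021. At 2 dpf 1 of them was called lower, against 0.997% of all genes tested. Every mutant library was below every control library for 4 of the 6 (*sox9b*, *sox5*, *sox6*, *runx2b*), against 12.1% of all genes. The log2 fold change was below 0 for 6 of 6, against 28.1% of all genes. At 2.5 dpf limma called 0 of 17379 genes (0% of those tested, with 2128 at an unadjusted p under 0.05) and so none of the 6. Their mutant libraries were all lower for 5 of 6, the exception being *runx3*, against 19.2% of all genes. Of the 6, 3 had an unadjusted p under 0.05 with a lower level (*sox9a*, *sox9b*, *sox5*), against 5.06%, and 6 of 6 had a log2 fold change below 0, against 48.1%.

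Over both stages together 1 of the 6 was called lower (1.99% of 16703 genes), 5 of 6 had an unadjusted p under 0.05 with a lower level (6.46% of genes), and 4 of 6 were lower in every mutant library at both stages (5.21% of genes). The median log2 fold change of the 6 was −0.38 at 2 dpf and −0.75 at 2.5 dpf, beside 0.18 and 0.02 for all genes tested. Relative to the median of all genes at 2 dpf, *sox9a* was at −0.56, *sox9b* at −0.62, *sox5* at −0.54, *sox6* at −0.34, *runx2b* at −1.72, and *runx3* at −0.44. Rescaling each library by its median ratio brought the median of all genes at 2 dpf to −0.02. There it still called 1 of the 6, and 236 of all 15453 genes lower. Over both stages it brought the median from 0.09 to −0.03 and called 554 of all 16703 genes lower, against 332 without it. Of the 6 it called 4, with adjusted p of 0.0485 for *sox9a*, 0.0324 for *sox9b*, 0.0342 for *sox5*, and 0.0357 for *runx2b* (limma). Over the 14 alternatives the adjusted p of the *sox* genes in this group ranged from 0.0485 to 0.235 for *sox9a*, 0.0324 to 0.186 for *sox9b*, and 0.0342 to 0.187 for *sox5*. That of *sox6*, which was called in none of them, ranged from 0.0505 to 0.304. No gene was called in the difference between the stages (0% of 16703, with 902 at an unadjusted p under 0.05).

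**Figure D2:**
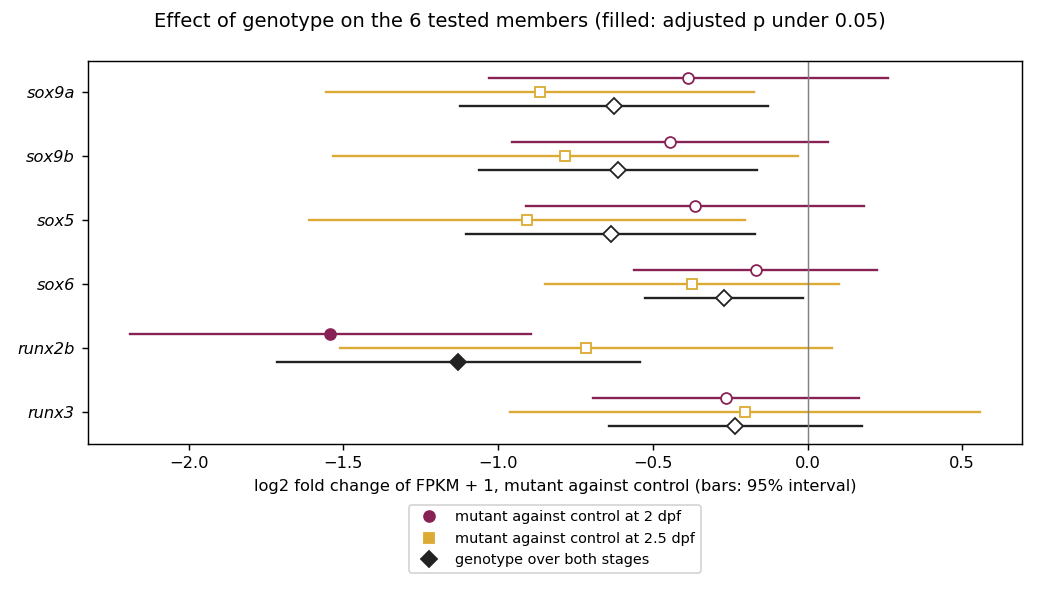
Log2 fold change of FPKM + 1 in mutants against controls for the 6 tested genes, with 95% intervals as bars, at 2 dpf (circles), 2.5 dpf (squares), and over both stages (diamonds). Every point lies left of 0, and the filled points, called at an adjusted p under 0.05, are those of *runx2b* at 2 dpf (−1.54) and over both stages (−1.13).

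The size of the difference in *sox9a*, *sox9b*, and *sox5* depended on which control library was used. In replicate 2 of the controls the *sox9a* level was 1.72 times that of replicate 1 at 2 dpf and 1.67 times at 2.5 dpf, and for *sox5* the ratios were 1.54 and 1.73. In mutants the same ratios were 0.926 and 1.18 for *sox9a* and 0.953 and 0.958 for *sox5*. Without control replicate 2 the log2 fold change of *sox9a* at 2 dpf went from −0.39 to 0.00, that of *sox9b* from −0.44 to −0.20, and that of *sox5* from −0.36 to −0.09. At 2.5 dpf without control replicate 2 the values were −0.50 for *sox9a*, −0.36 for *sox9b*, and −0.54 for *sox5*, with the same sign as with all 4 libraries. Without control replicate 1 the values had to move the other way by as much, since the full fit averages the 2 control libraries. They went to −0.77, −0.69, and −0.63 for *sox9a*, *sox9b*, and *sox5* at 2 dpf and to −1.23, −1.21, and −1.28 at 2.5 dpf. *sox6* moved least, to −0.15 and −0.27 without control replicate 2 and to −0.19 and −0.47 without control replicate 1. *runx2b* was at −1.20 at 2 dpf without control replicate 2, and at 2.5 dpf it went to −0.98, further from 0 than with it.

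**Figure D3:**
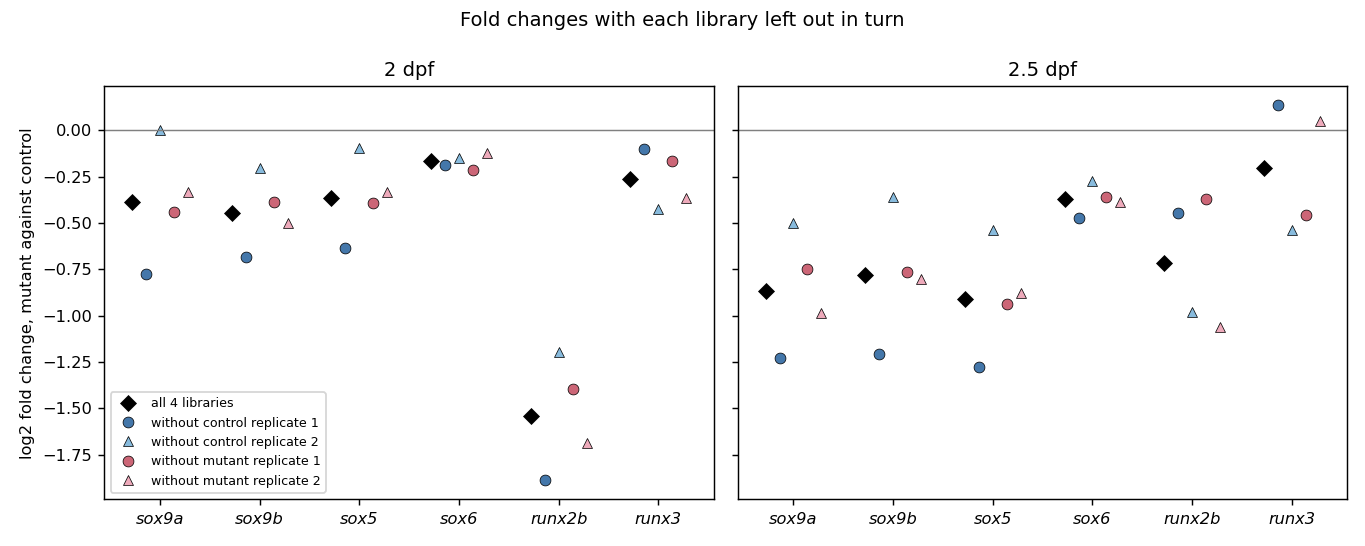
Log2 fold change of the 6 tested genes in mutants against controls at 2 dpf (left) and 2.5 dpf (right), with all 4 libraries of the stage (diamonds) and with each library left out in turn. Without control replicate 2 the values of *sox9a* at 2 dpf rise to 0.00, whereas *runx2b* at 2 dpf stays between −1.89 and −1.20 whichever library is left out.

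The *sox* genes differed in how closely they kept to each other. The ratio of *sox9a* to *sox9b* lay between 2.37 and 3.13 in all 8 libraries, with no order by genotype. The ratio of *sox5* to *sox9a* was 0.0766 to 0.0859 in the 4 libraries of 2 dpf and 0.104 to 0.128 in those of 2.5 dpf, and controls and mutants overlapped at either stage. *sox6* varied more against the others. Its ratio to *sox9a* ran from 0.0193 to 0.0402 and its ratio to *sox5* from 0.192 to 0.373 over the 8 libraries. At 2.5 dpf both ratios were higher in mutants, at 0.0402 and 0.0350 against 0.0340 and 0.0243 for *sox9a* and at 0.315 and 0.338 against 0.279 and 0.192 for *sox5*. *runx2b* did not keep to *sox9a* either. At 2 dpf its ratio to *sox9a* was 0.0786 and 0.0793 in controls and 0.0209 and 0.0312 in mutants. At 2.5 dpf it was 0.0525 and 0.0199 in controls and 0.0232 and 0.0395 in mutants, and the groups overlapped.

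*cbfb*, the gene of the DNA-binding partner of the Runx proteins, was 2.40 and 2.93 FPKM in controls and 3.18 and 3.15 FPKM in mutants at 2 dpf, and 1.83 and 1.28 FPKM against 2.26 and 3.73 FPKM at 2.5 dpf. It was higher in every mutant library of its stage, as were 44.8% of all genes at 2 dpf and 24.3% at 2.5 dpf. The log2 fold changes of 0.19 and 0.63 did not pass the test (adjusted p = 0.546 and 0.413, limma). The ratio of *runx2b* to *cbfb* was 2.13 to 3.03 in the 4 control libraries and 0.443 to 0.826 in the 4 mutant libraries. Because *runx2b* was lower and *cbfb* higher in every mutant library of its stage, this ratio had to separate the genotypes within each stage. It adds no further evidence of a difference.

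**Figure D4:**
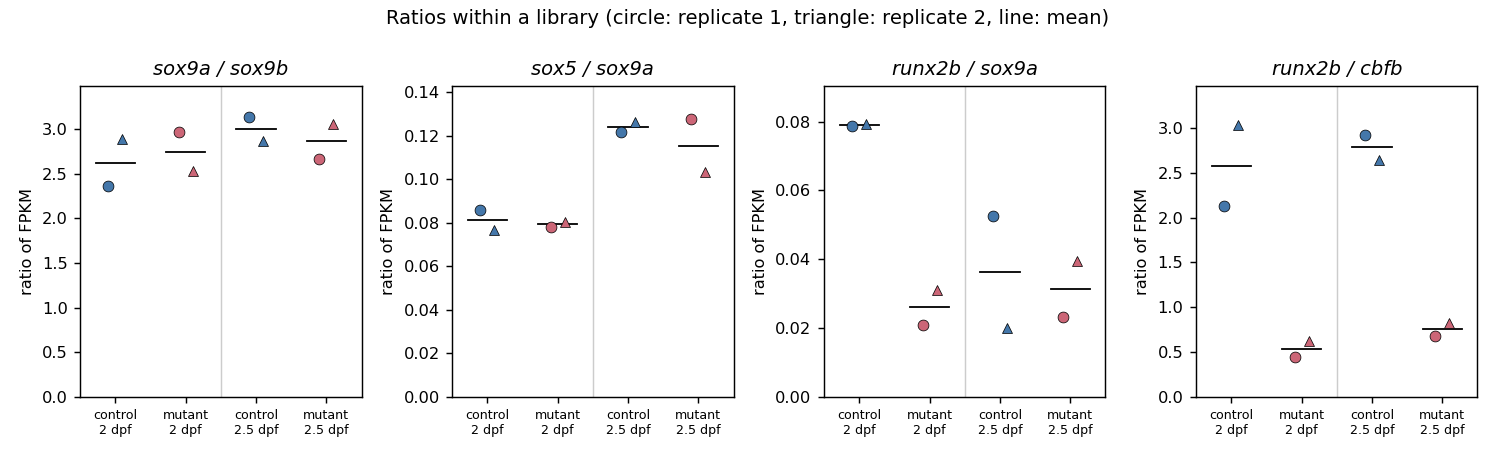
Ratio of FPKM within each library for *sox9a* to *sox9b*, *sox5* to *sox9a*, *runx2b* to *sox9a*, and *runx2b* to *cbfb*, with circles for replicate 1, triangles for replicate 2, and a line at the group mean. The first ratio stays between 2.37 and 3.13 in every group, the second is higher at 2.5 dpf than at 2 dpf in either genotype, and the last is at least 2.13 in controls and at most 0.826 in mutants.

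Levels of the stages come from separate tables, so stage and table cannot be told apart, and the values of the stages are given with that limit. From 2 to 2.5 dpf in controls the mean of *sox5* went from 7.08 to 16.9 FPKM and that of *sox6* from 2.12 to 3.79 FPKM, and every library of 2.5 dpf was above every library of 2 dpf for both. This held for 2 of the 6 genes, against 66.2% of all genes. None was lower in every library, against 7.54%. With limma 0 of the 6 were called in controls, against 21.5% of genes. The median of all genes rose by 0.44 on the log2 scale, and relative to it *sox5* was at 0.69, *sox9a* and *sox6* at 0.18, *sox9b* at −0.02, and *runx2b* at −0.998. *runx2b* was the only one of the 6 with a mean lower at 2.5 dpf than at 2 dpf in controls, 4.37 ± 1.39 against 6.99 ± 2.66 FPKM, and the groups overlapped.

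In mutants *sox5*, *sox6*, and *sox9b* were higher in every library of 2.5 dpf, 3 of 6 against 52.2% of all genes, the last by a margin of 24.77 against 24.72 FPKM. The median of all genes rose by 0.25 there, and relative to it *sox5* was at 0.33, *sox6* at 0.16, *sox9a* at −0.11, and *sox9b* at −0.18. The direction of *sox9b* turned after median-ratio rescaling (−0.28) and after quantile normalization (−0.12), and that of *sox9a* did as well (−0.23 and −0.039). The mean of *sox9a* was 65.1 ± 3.55 FPKM at 2 dpf and 71.9 ± 8.44 FPKM at 2.5 dpf in mutants, whereas it was 88.4 and 136 FPKM in controls. No member was called in mutants (0 of 6, against 2.8% of genes). The effect of genotype differed between the stages by −0.48 for *sox9a* (95% interval −1.49 to 0.53) and −0.54 for *sox5* (−1.45 to 0.36), which did not pass the test.

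Sox9 and its partners activate the genes of cartilage matrix. *col2a1a*, a type II collagen gene, was 7.79 and 14.56 FPKM in controls and 5.42 and 5.04 FPKM in mutants at 2 dpf. At 2.5 dpf it was 23.53 and 58.74 FPKM against 9.28 and 13.73 FPKM. It was lower in every mutant library of its stage, as were 5.21% of all genes. Over both stages it fell by 1.27 ± 0.31 on the log2 scale (adjusted p = 0.0389, limma). The ratio of *col2a1a* to *sox9a* was 0.120 and 0.130 in controls and 0.0802 and 0.0805 in mutants at 2 dpf, then 0.231 and 0.346 against 0.141 and 0.176. For *col2a1a* controls were thus higher at both stages also per unit of *sox9a*. This did not hold for all type II collagen RNA. *col2a1b*, also a type II collagen gene, was 5.35 and 11.45 FPKM in controls and 9.24 and 10.87 FPKM in mutants at 2 dpf. At 2.5 dpf it was 13.51 and 18.58 against 15.97 and 18.6 FPKM, and the groups overlapped at both stages.

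**Figure D5:**
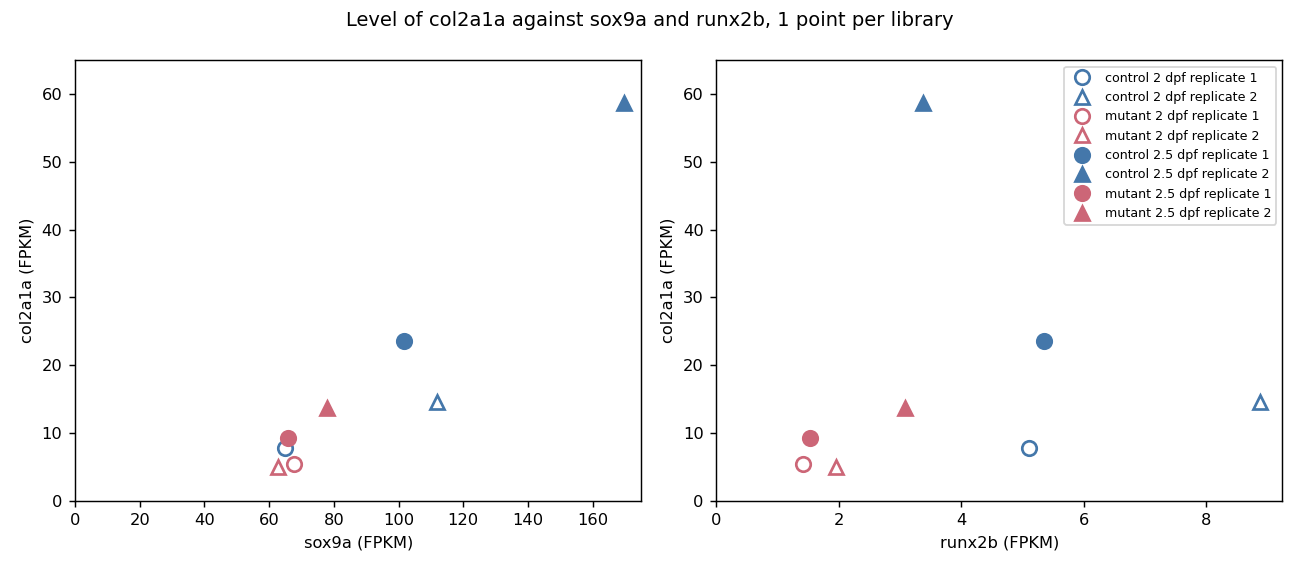
FPKM of *col2a1a* against FPKM of *sox9a* (left) and of *runx2b* (right) in the 8 libraries, with open symbols for 2 dpf, filled symbols for 2.5 dpf, circles for replicate 1, triangles for replicate 2, blue for controls, and red for mutants. Control replicate 2 of 2.5 dpf holds the highest *sox9a* (169.69 FPKM) and *col2a1a* (58.74 FPKM), while its *runx2b* (3.38 FPKM) is close to that of mutant replicate 2 (3.08 FPKM).

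Of the 23 cartilage products listed, 16 were tested at 2 dpf, 20 at 2.5 dpf, and 19 over both stages. None was called at either stage, where the smallest adjusted p belonged to *snorc* (−0.82) and *matn1* (−0.85) at 2 dpf and to *mia* (−3.70), *snorc* (−2.61), and *ucmaa* (−0.93) at 2.5 dpf, all matrix or secreted products of cartilage cells. At 2.5 dpf 10 of 20 had an unadjusted p under 0.05 with a lower level, against 5.06% of all genes, and the median log2 fold change was −0.90, against 0.02 for all genes. Not all followed *col2a1a*, since *col11a1b* was higher in every mutant library at both stages. Of all genes, 44.8% were higher in every mutant library at 2 dpf and 24.3% at 2.5 dpf. Over both stages *col2a1a* was called lower and *col11a1b*, a type XI collagen gene, higher (0.50, adjusted p = 0.0485, limma). Of all genes, 1.99% were called lower and 7.02% higher there. *col9a1a*, of type IX collagen, was 6.91 and 14.36 FPKM in controls and 6.85 and 8.23 FPKM in mutants at 2 dpf, then 16.26 and 35.94 against 11.55 and 12.17 FPKM. *matn1*, the cartilage matrilin gene, reached 59.73 FPKM in control replicate 2 of 2.5 dpf and was between 0.19 and 3.19 FPKM in the other 7 libraries. *acana*, an aggrecan gene, was under 1 FPKM in all libraries. *acanb*, also an aggrecan gene, was 0.26 and 1.81 FPKM in controls and 0.07 and 0.02 FPKM in mutants at 2.5 dpf.

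The summed level of the cartilage products was 81.6 and 158 FPKM in controls and 80.6 and 91.2 FPKM in mutants at 2 dpf. At 2.5 dpf it was 193 and 572 FPKM in controls and 120 and 167 FPKM in mutants. The sum of control replicate 2 was 1.93 and 2.96 times that of control replicate 1. The highest sum at either stage was thus in the library that also held the most *sox9a*, *sox9b*, *sox5*, and *sox6*, and the part of this library's make-up in the differences of those genes was not tested.

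Products of bone and of maturing cartilage, the genes downstream of Runx2 and Sp7, had no common direction. Of 9 tested, 1 was called higher at 2 dpf, against 2.52% of all genes. It was *phex*, a peptidase gene of bone mineralization, which rose by 0.97 ± 0.17 on the log2 scale (adjusted p = 0.0389, limma). *ifitm5* was at 0.75 and *postnb*, a periostin gene, at 1.24, neither past the threshold. At 2.5 dpf 0 of 9 were called, with *postnb* at 1.03, *bglap*, the osteocalcin gene, at −1.41, and *ifitm5* at −1.64. Over both stages 1 of 9 was called higher, against 7.02% of all genes. This was *postnb*, which rose by 1.14 ± 0.18 (adjusted p = 0.00787, limma), and *bglap* (−1.03) and *phex* (0.54) came next by p. The median of the 9 was 0.41 at 2 dpf, −0.09 at 2.5 dpf, and −0.09 over both. *col10a1a*, a gene of maturing cartilage and early bone, was at most 1.42 FPKM and *spp1*, the osteopontin gene, at most 0.55 FPKM. *bglap* was 2.99 and 1.87 FPKM in controls and 0.45 and 2.22 FPKM in mutants at 2 dpf, then 6.28 and 4.01 against 0.60 and 2.25 FPKM. *col1a1a*, of type I collagen, was 44.2 and 73.3 against 96.4 and 88.7 FPKM, then 53.8 and 229 against 69.9 and 179 FPKM, so that replicate 2 was high in both genotypes at 2.5 dpf.

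Among the relatives and partners of the 8 genes, 0 of 6 tested were called at 2 dpf, at 2.5 dpf, and over both stages. *sox10*, which marks the sorted cells, was 53.8 and 84.9 FPKM in controls and 47.6 and 70.3 FPKM in mutants at 2 dpf, and 122 and 156 against 111 and 85.5 FPKM at 2.5 dpf. Its log2 fold changes were −0.22 (95% interval −0.91 to 0.46) and −0.50 (−1.04 to 0.04). The ratio of *sox9a* to *sox10* was 1.21 and 1.32 in controls and 1.42 and 0.890 in mutants at 2 dpf, and 0.837 and 1.09 against 0.596 and 0.912 at 2.5 dpf, with overlap at both stages. *runx1*, a Runx gene of blood cells, was at −0.40 and −0.23, and *sox8b*, a relative of *sox9*, at 0.37 and 0.23, none past the threshold. *runx1* was nevertheless lower in every mutant library at both stages, at 0.98 and 1.01 against 0.32 and 0.73 FPKM, then 1.13 and 0.78 against 0.75 and 0.58 FPKM. This pattern held for 4 of the 6 tested members and for 5.21% of all genes. *sox8a* (0.02 and −0.71) and *sox13*, a relative of *sox5* (0.04 and −0.03), were not called either. The median of the list was 0.03 at 2 dpf and −0.13 at 2.5 dpf.

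Of 31 genes listed as acting on the 8 factors, 24 were tested at 2 dpf, and 1 was called higher (2.52% of all genes) and 1 lower (0.997%). *msx2b*, a homeobox gene of arch mesenchyme, rose by 1.14 ± 0.21 on the log2 scale and *nkx3.2*, a homeobox gene of the jaw joint, fell by 1.74 ± 0.32, each with an adjusted p of 0.0423 (limma). *nkx3.2* was 17.49 and 35.32 FPKM in controls and 6.81 and 6.73 FPKM in mutants at 2 dpf, then 10.52 and 18.68 against 4.03 and 7.15 FPKM. It was lower in every mutant library of its stage, as were 5.21% of all genes, *runx2b* among them. *msx1b* (0.84) was next by p at 2 dpf. At 2.5 dpf 0 of 27 were called, with *pth1rb*, a receptor gene for parathyroid hormone, at 0.68, *jag1b*, a Notch ligand gene, at 0.97, and *foxc1a*, a forkhead gene of arch mesenchyme, at 0.91.

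Over both stages 7 of 26 such regulators were called higher (7.02% of all genes) and 2 lower (1.99%). The largest changes among them were those of *nkx3.2* (−1.49), *jag1b* (1.06), *bmp2b*, a BMP ligand gene (1.06), *snai2*, a repressor gene of the neural crest (0.90), *foxc1a* (0.90), and *twist3*, a gene of the Twist family (0.81), with adjusted p from 0.0104 to 0.0399 (limma). The other gene called lower, *wwp2*, a ubiquitin ligase gene, was at −0.81 and was named after its value was seen. At least *jag1b*, *snai2*, and *nkx3.2* are among the genes the study selected from these libraries. The shares of all genes beside these counts thus describe and do not test. The medians of the list were 0.36, 0.02, and 0.23 in the 3 comparisons.

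RNA of other cell types was present in the sorted cells and differed between groups. Each of the 11 marker lists had every marker above 0 in some library. The same was true of 25884 of all 25926 identifiers in the libraries of 2 dpf, so this alone does not set the markers apart. Ear markers, from a tissue that also uses the *sox9* genes, summed to 33.2 to 44.2 FPKM in controls and 55.0 to 72.6 FPKM in mutants at 2 dpf, and to 138 to 155 FPKM and 100 to 111 FPKM at 2.5 dpf. Of 7 tested, 2 were called higher at 2 dpf (2.52% of all genes), 0 at 2.5 dpf, and 2 higher over both stages (7.02% of all genes). At 2.5 dpf the markers were split, with 5 fold changes below 0 and 2 above. *oc90* was then 2.57 and 3.77 FPKM in mutants against 0.50 and 0.71 FPKM in controls, and *eya1* 22.07 and 17.69 against 12.41 and 13.95 FPKM. Glia markers summed to 1487 to 2114 FPKM against 1123 to 1362 FPKM, then 2447 to 2715 against 1629 to 2040 FPKM, so the sum was lower in every mutant library, with 0 of 5 and 0 of 8 markers called. *fabp7a* alone made up 92.5 to 97.2% of this sum. Without it the sum was still lower in every mutant library, at 84.8 to 91.5 against 31.9 to 60.2 FPKM at 2 dpf. The values of 2.5 dpf were 179 to 184 against 68.2 to 111 FPKM. Most of this remainder was in turn *olig2*, at 77.76 to 80.74 against 25.2 to 51.86 FPKM at 2 dpf. At 2.5 dpf *olig2* was 154.43 to 157.04 against 45.49 to 78.39 FPKM. The lower glia sums thus rest mainly on *fabp7a* and *olig2*, and do not show that glia markers fell as a set. Fold changes were below 0 for 4 of 5 glia markers tested at 2 dpf and 5 of 8 at 2.5 dpf, against 28.1% and 48.1% of all genes. White blood cell markers summed to 39142 to 40332 FPKM in controls and 14878 to 23583 FPKM in mutants at 2 dpf (0 of 6 called). Red blood cell markers summed to 11886 to 18271 and 4308 to 5807 FPKM there (4 of 7 called lower, against 0.997% of all genes). *lyz* alone made up 96.6 to 98.4% of the white blood cell sum, and *spi1b*, another of its markers, overlapped at 33.8 and 43.7 FPKM in controls and 34.6 and 44.4 FPKM in mutants. Without *lyz* the sum was 616 to 677 FPKM in controls and 311 to 498 FPKM in mutants. At 2.5 dpf white blood cell markers were 9358 to 13511 FPKM in controls and 12214 to 12299 FPKM in mutants and overlapped. Lens markers summed to 126 to 168 against 10.2 to 37.9 FPKM at 2 dpf (2 of 4 called lower, against 0.997% of all genes). They overlapped at 2.5 dpf, as red blood cell markers did. The sum of muscle markers was lower in mutants at 2 dpf (335 to 486 against 222 to 301 FPKM) and higher at 2.5 dpf (79.3 to 96.8 against 121 to 254 FPKM). That of neuron markers was lower in them at 2.5 dpf (540 to 771 against 459 to 495 FPKM). Of these, 0 of 6 muscle markers were called at either stage and 0 of 8 neuron markers at 2.5 dpf. Fold changes were below 0 at 2 dpf and above 0 at 2.5 dpf for 6 of 6 muscle markers tested. Of all genes, 28.1% were below 0 at 2 dpf and 48.1% at 2.5 dpf, so above 0 at 2.5 dpf was the more common direction. Those of neuron markers were below 0 for 8 of 8 at 2.5 dpf, against 48.1% of all genes. Some single markers overlapped, such as *acta1a* at 2 dpf (15.5 and 22.59 against 20.55 and 15.61 FPKM) and *elavl3* at 2.5 dpf (33.1 and 42.48 against 33.59 and 27.99 FPKM). Others did not, such as *neurod1* at 2.5 dpf (50.02 and 54.2 against 15.76 and 19.92 FPKM). The sums of melanophore, xanthophore, iridophore, and skin markers overlapped between genotypes at both stages. Over both stages together 1 of 7 glia, 1 of 8 neuron, and 1 of 6 white blood cell markers were called lower (1.99% of all genes). Of 5 xanthophore markers 1 was called higher (7.02% of all genes) and 1 lower. No muscle, red blood cell, lens, melanophore, iridophore, or skin marker was called there. The part of other cell types in the differences of the 8 genes was not tested.

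Across the 8 libraries *sox9a* was most like *myl9a*, *fgfrl1b*, and si:dkey-19b23.8 among the 11036 genes whose mean reached 2 FPKM. Pearson's r of log2(FPKM + 1) was 0.983, 0.969, and 0.969, and Spearman's rho was 0.929, 0.976, and 0.690. Within the set, *sox9a* had r of 0.963 with *sox9b*, 0.910 with *sox5*, 0.770 with *sox6*, 0.490 with *runx2b*, and 0.021 with *runx3*, and r of 0.938 with *col2a1a* and 0.729 with *sox10*. *runx2b* was most like *rad23aa* (r of 0.955), *gng10* (0.907), and si:ch73-31d8.2 (0.898). These correlations describe 8 points that share stage, genotype, and library make-up.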

How the data were processed

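SMART-seq of *sox10*:kikGR+ cells gave 8 libraries in 4 groups of 2, assigned from the labels. The authors deposited 1 table of FPKM per stage, and their processing notes name GRCz11, HISAT, StringTie, and edgeR without versions. The tables hold no counts, so depth is unknown and no counting interval is given. FPKM were used as scaled by the authors. SMARTer cDNA is amplified by PCR without molecular identifiers, and the strand is not recorded, so reads of overlapping antisense genes cannot be told apart. The tables give different numbers of transcripts for *sox6* (9 and 10) and *runx3* (3 and 6).

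Groups were compared with limma 3.58.1 in R 4.3.3 (lmFit, eBayes with a trend) on log2(FPKM + 1). Genes whose mean over the fitted libraries reached 0.5 FPKM were kept, p-values were adjusted by Benjamini-Hochberg over every gene kept, and the threshold was 0.05. Fold changes on this scale understate those of low genes. Genotype over both stages and its difference between stages were fitted over 8 libraries with stage as a term. An exact permutation test of 2 libraries against 2 cannot go below 0.333 and was not used.

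The members and lists were chosen with earlier results of these data known. From each list were named its called genes (up to 6 by size) and, where fewer than 3 were called, those with the smallest p up to 3, with 11 genes always named. Likeness was taken over genes whose mean reached 2 FPKM. The alternatives were median-ratio rescaling or quantile normalization of the libraries, a filter at 2 FPKM or none, a pseudocount of 0.1, a replicate block, 1 fit of all 8 libraries, and leaving out each library. A crossed block was added after seeing the data. The calculation was also run on simulated data. The changes planted there were larger than those of the 6 tested genes and spared low genes. That run thus does not show whether changes of their size would be found.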

Additional observations from a re-analysis of the deposited data

Results flagged for a closer look

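Among the cartilage and bone products tested, *col11a1a* and *ifitm5* were higher in every mutant library at 2 dpf and lower in every mutant library at 2.5 dpf. Of all genes, 44.8% were higher in every mutant library at 2 dpf, and 19.2% were lower in every one at 2.5 dpf. The share of all genes with this opposite pattern was not counted, so the pattern cannot be set against it. *col11a1a*, a type XI collagen gene, was 1.5 and 1.85 FPKM in controls and 2.18 and 3.23 FPKM in mutants at 2 dpf, and 7.03 and 13.04 against 6.15 and 4.06 FPKM at 2.5 dpf. Its effect of genotype differed between the stages by −1.28 on the log2 scale (adjusted p = 0.859, limma). *ifitm5*, a gene of bone cells, was 0.32 and 0.17 FPKM in controls and 1.22 and 0.98 FPKM in mutants at 2 dpf, and 7.44 and 1.48 against 0.07 and 1.02 FPKM at 2.5 dpf, a difference between the stages of −2.39 (adjusted p = 0.834, limma). Neither difference passed the test. None of the 8 transcription factors showed such a pattern.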

How the results depend on the processing

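The number of the 6 tested genes called at 2 dpf (1) was 0 without the filter, with quantile normalization, in a single fit of all 8 libraries, and with each library left out (0 to 0). Over both stages (1) it was 0 without the filter, 4 with median-ratio rescaling, 2 with quantile normalization, and 0 to 1 with each library left out. In controls from 2 to 2.5 dpf (0) it was 1 with the replicate block, *sox5*, and 0 to 1 with each library left out. With each library left out, log2 fold changes ranged from −0.77 to 0.0014 for *sox9a* at 2 dpf and from −0.54 to 0.14 for *runx3* at 2.5 dpf. Those of the difference between stages ranged from −0.28 to 0.40 for *runx3* and from −0.76 to 0.085 for *sox9b*, those of controls between stages from −0.12 to 0.56 for *runx3* and from −0.0065 to 0.84 for *sox9b*, and those of mutants between stages from −0.076 to 0.61 for *runx2b*. With median-ratio rescaling the change between stages turned to −0.0082 for *sox9a*, −0.20 for *sox9b*, and −0.12 for *runx3* in controls and to −0.23 for *sox9a* and −0.28 for *sox9b* in mutants. With quantile normalization it turned to −0.24 for *runx3* in controls and to −0.039 for *sox9a*, −0.12 for *sox9b*, −0.066 for *runx2b*, and −0.013 for *runx3* in mutants. The cause was not tested.

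Over all genes, limma called 544 at 2 dpf (390 higher, 154 lower), 47 without the filter, 236 with quantile normalization, 293 in the single fit of 8 libraries, 830 with the replicate block, and 0 to 227 with each library left out. With median-ratio rescaling 215 were higher and 236 lower. At 2.5 dpf it called 0, but 28 with the filter at 2 FPKM, 249 in the single fit, and 738 with the block. Over both stages it called 1505 (1173 higher, 332 lower), 990 with the filter at 2 FPKM, 661 to 1422 with each library left out, and 692 higher and 554 lower after median-ratio rescaling. In controls between stages the 3517 calls (3112 higher) became 0 without the filter, 2242 with the filter at 2 FPKM, 990 (350 higher) with median-ratio rescaling, 526 with quantile normalization, 1113 with the block, and 0 to 3424 with each library left out. In mutants the 473 became 8 without the filter, 58 after median-ratio rescaling, 18 after quantile normalization, 4 with the block, and 0 to 5 with each library left out. Same-numbered libraries of controls and mutants deviated together with a correlation of 0.15 at 2 dpf and 0.37 at 2.5 dpf, across genes, but 2 pairs do not show that the numbers pair the libraries. With the block the members called were 1 at 2 dpf, 0 at 2.5 dpf, and 1 over both stages. Between stages the correlations were −0.13 and −0.11, and a block on crossed numbers called 3699 genes in controls and 366 in mutants. Unknown depth limits what can be said of *runx2a*, *sp7*, and *runx3*, and groups of 2 allow no check of single outlying libraries.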
